A study of Homo sapiens with 12 samples.

Results

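The baseline transcriptome of A2058, an established human cutaneous melanoma line, was described from the 6 control libraries of a series of 12. These were 3 libraries of untreated cells and 3 of cells given a non-targeting siRNA (siCNTL) at 12.5 nM with a lipid transfection reagent, whose RNA was taken 96 hours after transfection. All were grown in the same serum-containing medium, and each of 3 batches held 1 untreated and 1 siCNTL library. The other 6 libraries, of cells given either of a pair of SOX10 siRNAs, entered only the model in the last paragraph, in its filter on low values and its estimate of the spread. The members were chosen by the labels, so the levels below are a description by abundance. Only 1 cell line was measured, and the labels do not say whether the replicates were separate cultures.

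Melanocytes derive from the neural crest and make melanin in melanosomes, organelles related to lysosomes. Their identity rests on a small set of transcription factors, with SOX10 and PAX3 acting on the gene of MITF, and MITF acting on the genes of melanin synthesis. Melanoma cells keep this programme to different degrees, and lines that keep it differ from lines that have lost it in their receptors, adhesion molecules and antigens.

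Levels are in TPM, a measure of relative transcript number in which each gene is scaled by its length and each library to the same total, so that genes can be compared with each other. A gene was called detected when it had at least 1 TPM in all 6 libraries, and listed at 0 when its value was 0 in all 6. Where a single gene is given, the first value is the median of the 6 libraries and the bracket holds the lowest and the highest. Each library listed 20396 to 21982 genes above 0, of which 13826 to 14351 had at least 1 TPM. The depth behind these values is unknown, since TPM keep no read counts. The library of siCNTL replicate 3 stood apart: across 14146 genes its log2(TPM + 1) values correlated with the other 5 at r = 0.953 to 0.971, while those 5 correlated with each other at 0.973 to 0.978 (genes are not independent replicates). It held the lowest value of 3285 of the 10772 detected protein-coding genes (30.5%), the most of any library. Many of the lowest values below are therefore its own, among them those of TYR, QPCT, MLANA, CD63, HEY1, LEF1, ID3, GDF15, CXCL1, CXCL8, CGAS and KRT18.

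Of the 61587 genes in the table, 12304 were detected (20%) and 33123 were listed at 0 (53.8%). Of the 20006 protein-coding genes, 10772 were detected (53.8%) and 4249 were listed at 0 (21.2%). The median protein-coding gene had a mean of 3.05 TPM, and the median detected one 20.6 TPM. These are the values against which the gene groups below are set. All 42 translation factors and 85 of 87 ribosomal protein genes were detected, and of these housekeeping groups RPL10L alone, a ribosomal protein gene known from testis, was listed at 0.

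The RNA was concentrated in few genes. The 10 most abundant genes held 7.17% to 7.89%. By mean level, 161 genes at 1000 TPM or more held 33.1% of all TPM, 1625 genes from 100 to 1000 TPM held 42.8%, and 6179 genes from 10 to 100 TPM held 21.2%. The 14318 genes above 0 and below 1 TPM together held 0.286%. Protein-coding genes made up 92.5% to 95.9% of the TPM, lowest in siCNTL replicate 3. Long noncoding RNA genes made up 1.59% to 1.96%, and pseudogenes 1.57% to 2.88%, highest in siCNTL replicate 3. Mitochondrially encoded genes held 1.24% to 2.08%, with the untreated libraries at 1.36%, 1.24% and 1.89% and the siCNTL libraries at 2.08%, 1.87% and 1.79%. Nuclear rRNA genes varied most, from 0.385% to 1.86%. SMART-Seq v4 primes on poly(A) tails, so the shares of RNA without such tails describe the libraries, not the make-up of the cells' RNA. The batch 3 libraries were highest for nuclear rRNA, with 1.65% in untreated cells and 1.86% with siCNTL.

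**Figure D1:**
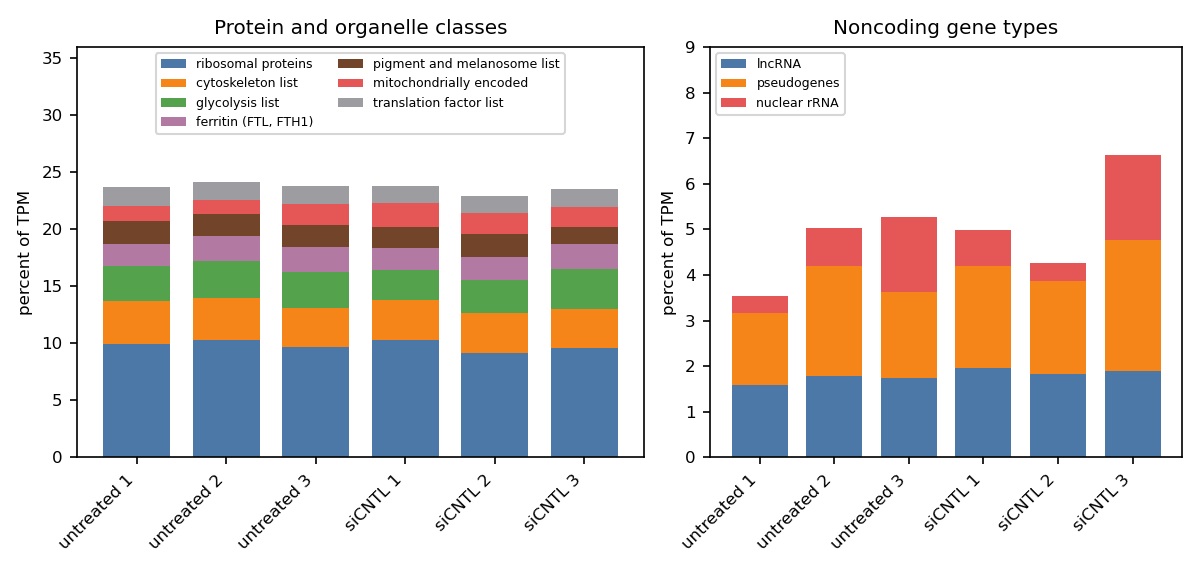
Share of all TPM (percent, vertical axis) in each of the 6 control libraries, stacked by protein and organelle class on the left and by noncoding gene type on the right. Ribosomal proteins are the largest class on the left, at 9.17% to 10.3% in every library, while nuclear rRNA on the right ranges from 0.385% to 1.86%.

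The most abundant gene was FTL, the light chain of the iron store ferritin (chromosome 19, 48965309 to 48966879). Its untreated libraries had 11967, 12417 and 12336 TPM and its siCNTL libraries 11380.5, 12188 and 12137 TPM. The values lay close together, with a coefficient of variation (SD divided by the mean) of 3.09%. FTH1, the ferritin heavy chain, was at 8979 TPM (7448 to 10335), and the 2 genes together held 1.88% to 2.27% of all TPM. GAPDH, the glycolytic dehydrogenase, ranked second at 10201 TPM (8789 to 13072), with its highest value in siCNTL replicate 3. TMSB4X, a thymosin that binds monomeric actin, came after FTH1 at 8687 TPM (7874 to 9299).

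Below these, the 30 leading genes covered a handful of functions. Glycolytic enzymes were GAPDH, ENO1 at 4123 TPM (3595 to 4566), ALDOA at 3945 TPM (3406 to 4557), LDHA at 2689 TPM (2457 to 3124) and TPI1 at 2596 TPM (2304 to 3056). Actin and its binding proteins were ACTB at 4983 TPM (4337 to 5488), ACTG1 at 3584 TPM (2973 to 3953), PFN1 at 3038 TPM (2831 to 3409.8) and the thymosins TMSB4X and TMSB10. Genes of the melanosome were CD63, DCT and PMEL, described below. Secreted or matrix proteins were SPARC, a collagen-binding glycoprotein, at 5979 TPM (5261 to 6942), and MIF, a cytokine with tautomerase activity, at 5763 TPM (5412 to 6035). Proteins of redox and metal handling were ATOX1, a copper chaperone, at 5818 TPM (4994 to 6471), and NQO1, a quinone reductase, at 2871 TPM (2745 to 3476). The others were RPS18, RPL15 and RPL8 (ribosome), EEF1A1 (translation elongation), PPIA (a prolyl isomerase), UBB (ubiquitin), B2M, ANXA5 (annexin), LGALS3 (galectin) and the mitochondrial genes MT-RNR2 and MT-CO2. The order within the list was loose: in 28 of its 29 pairs of neighbours the ranges of the 6 libraries overlapped, the exception being TMSB4X over RPS18. PMEL and LGALS3 had their lowest values in siCNTL replicate 3.

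**Figure D2:**
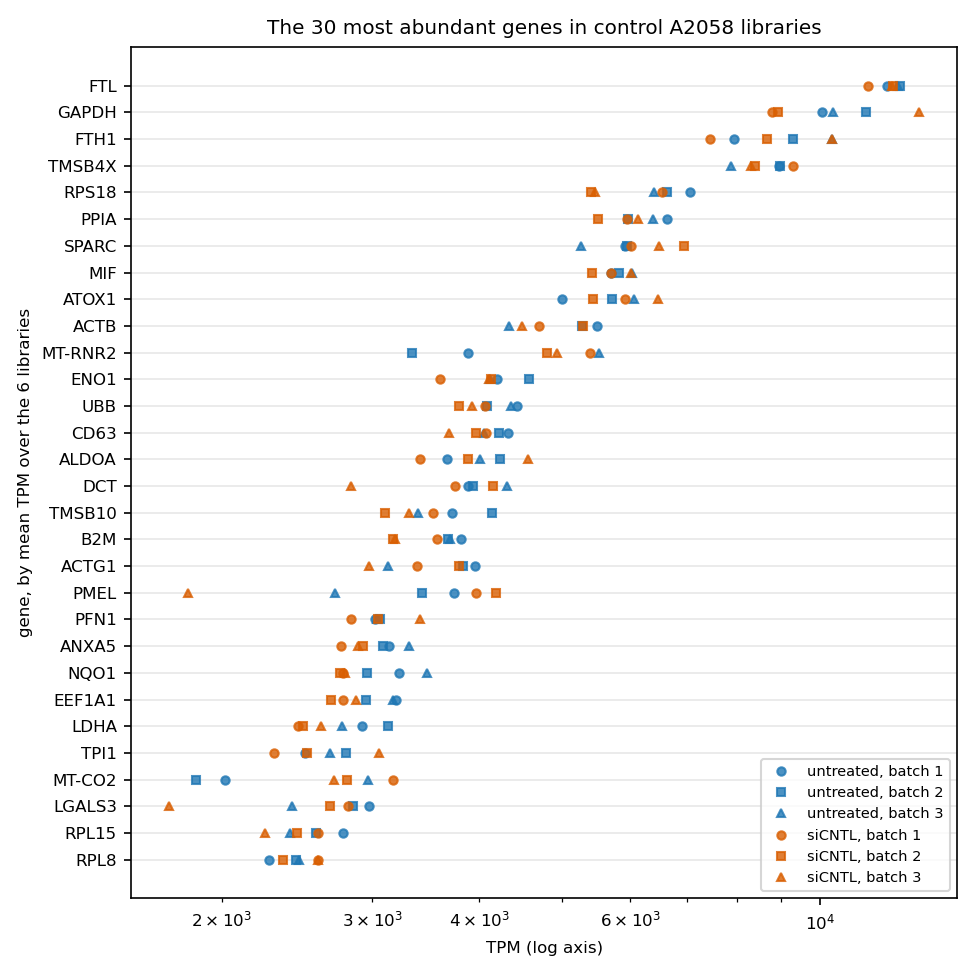
TPM (horizontal log axis) of the 30 genes with the highest mean, 1 point per library, coloured by group and shaped by batch. FTL lies between 11380.5 and 12417 TPM in all 6 libraries, while PMEL ranges from 1825 TPM in siCNTL replicate 3 to 4187 TPM in siCNTL replicate 2.

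Over the 100 most abundant genes, which held 25.4% to 26.7% of all TPM, 96 were protein-coding. Cytosolic ribosomal proteins were 28 of them, nuclear-encoded subunits of oxidative phosphorylation 11, the glycolysis list 7, the cytoskeleton list 7, the pigment list 4 and mitochondrially encoded genes 4. The remaining noncoding ones were MALAT1 and a pair of rRNA genes. The protein-coding members were short by the deposited gene length, with a median of 1761 bases against 3770.5 bases for all detected protein-coding genes. They also varied less between libraries, with a median coefficient of variation of 8.93% against 16.1%. Their levels are higher by choice, and the part of counting noise in this difference was not tested. The other enzymes of glycolysis were also detected, 19 of 25 in all, and 3 were listed at 0, among them HK3 and PGK2, isoforms of blood cells and testis.

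Ribosomal protein genes were the largest class of all. Together they held 9.17% to 10.3% of the TPM, their median gene had 1026 TPM, and 46 of the 87 were at 1000 TPM or more. Vertebrate ribosomal protein mRNAs typically begin with a C followed by an unbroken run of pyrimidines, the 5′ terminal oligopyrimidine tract, through which growth signals control their translation. RefSeq start sites (GRCh38.p14) were available for 69 of the 87 genes, in 85 windows. A C followed by at least 4 pyrimidines stood exactly at the start in 56.5% of those windows, in 28.9% of 45 windows of 33 translation factor genes, in 24.2% of 99 windows of 73 of the 100 most abundant genes, and in 4.58% of all 21350 windows of 15156 protein-coding genes. The match is to annotated starts, not to starts measured in A2058. Not every ribosomal protein gene has the tract at its annotated start: RPL15, at 2512 TPM (2249 to 2773), has none at any of its 3. A pair of genes with the tract and a pair without it are given as examples, each from 25 bases before the start to 25 bases from it on, with the tract in capitals: RPS18 (chr6:33272050-33272099, plus strand), EEF1A1 (chr6:73521008-73521057, minus strand), FTL (chr19:48965284-48965333, plus strand) and GAPDH (chr12:6535239-6535288, plus strand).
RPS18: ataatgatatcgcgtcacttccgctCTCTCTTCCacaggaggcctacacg
EEF1A1: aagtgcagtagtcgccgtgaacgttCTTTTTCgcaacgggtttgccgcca
FTL: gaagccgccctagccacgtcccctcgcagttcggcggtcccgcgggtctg
GAPDH: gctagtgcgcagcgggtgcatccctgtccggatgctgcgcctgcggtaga
The tract runs for 9 bases in RPS18, at 6467 TPM (5394 to 7055), and for 7 bases in EEF1A1, at 2911 TPM (2685 to 3197). FTL and GAPDH, both at a higher TPM level, have none at these starts.

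The pigment programme was present at high levels. Of 34 genes of melanin synthesis and the melanosome 32 were detected, against 53.8% of all protein-coding genes, and none was listed at 0. The list's median gene had 73.2 TPM and its members together held 1.46% to 1.98% of all TPM. DCT, the dopachrome tautomerase of eumelanin synthesis (chromosome 13, 94436811 to 94479682), had 3881, 3930.2 and 4309.5 TPM in untreated and 3749.7, 4144 and 2829.7 TPM in siCNTL libraries. PMEL, whose protein forms the fibrils on which melanin is laid down, had 3739, 3431 and 2714 TPM in untreated and 3963, 4187 and 1825 TPM in siCNTL libraries. For both genes the lowest library was siCNTL replicate 3. Among the other 5 libraries the groups overlapped for DCT, while for PMEL both siCNTL libraries lay above all 3 untreated ones. TYR, tyrosinase, the rate-limiting enzyme (chromosome 11, 89177875 to 89295759), was at 1191 TPM (965 to 1303).

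Other members have other roles in the melanosome. CD63, a tetraspanin of melanosomes and other endosomal organelles, was the highest of the list at 4058 TPM (3689 to 4316). QPCT, a glutaminyl cyclase often listed in melanocyte signatures, was at 1327 TPM (948 to 1627), GPNMB, a glycoprotein related to PMEL, at 632 TPM (523 to 679.9), and MLANA, the melanoma antigen also called MART-1, at 319 TPM (201 to 401). TYRP1, which acts beside TYR and DCT, was far lower than either, at 83.8 TPM (37.7 to 102). Transport of melanosomes was represented by RAB38 at 448 TPM (435 to 620.0), RAB32 at 474 TPM (395 to 529.7), RAB27A at 143 TPM (129.6 to 159) and MYO5A at 46.8 TPM (35.2 to 63.0). Transporters and channels spanned a wide range. TRPM1, a cation channel, was at 180.2 TPM (131 to 185), SLC24A5, a cation exchanger, at 79.4 TPM (31.9 to 107), and OCA2, an anion channel of the melanosome, at 4.51 TPM (2.60 to 6.94). The 2 members that were not detected were SLC45A2, a melanosomal transporter, at 4.98 TPM (0.735 to 7.45), and GPR143, a melanosomal receptor, at 0.452 TPM (0.312 to 1.43).

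Of the 34 pigment genes 19 had their lowest value in siCNTL replicate 3, against 0 to 6 in each of the other libraries. Of the 32 detected ones it was 18 (56.3%), beside 30.5% of all detected protein-coding genes. In these bulk libraries fewer cells of a kind and less RNA of that kind per cell cannot be told apart, and the part of that library's composition in this result was not tested.

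MITF is known to bind the hexamers CATGTG and CACGTG, the first of which is typical of the starts of pigment genes. CATGTG was searched on both strands in the 250 bases before RefSeq start sites. It occurred in 14 of 56 windows (25%) of the 28 pigment genes that matched, in 12 genes, and in 7.55% of all 21350 windows, and windows of 1 gene can overlap. CACGTG occurred in 12.5% and 7.38%. The 120 bases before 1 start each are given for 4 of these genes, chosen as examples with the hexamer close to the start, and for DCT, the highest of the melanin enzymes, which has none within that stretch. The hexamer (CACATG when read on the other strand) is in capitals: TYR (chr11:89177755-89177874, plus strand), TYRP1 (chr9:12693265-12693384, plus strand), GPNMB (chr7:23246655-23246774, plus strand), TRPM1 (chr15:31161161-31161280, minus strand) and DCT (chr13:94479683-94479802, minus strand).
TYR: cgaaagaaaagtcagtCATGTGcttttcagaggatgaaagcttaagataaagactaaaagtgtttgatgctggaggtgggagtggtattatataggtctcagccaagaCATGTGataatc
TYRP1: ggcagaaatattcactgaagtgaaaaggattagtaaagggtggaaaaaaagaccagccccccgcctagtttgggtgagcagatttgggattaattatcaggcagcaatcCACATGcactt
GPNMB: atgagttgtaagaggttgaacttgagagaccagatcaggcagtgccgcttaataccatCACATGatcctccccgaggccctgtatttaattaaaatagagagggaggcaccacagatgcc
TRPM1: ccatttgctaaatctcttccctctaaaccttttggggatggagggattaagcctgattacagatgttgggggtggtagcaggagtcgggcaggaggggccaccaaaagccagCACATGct
DCT: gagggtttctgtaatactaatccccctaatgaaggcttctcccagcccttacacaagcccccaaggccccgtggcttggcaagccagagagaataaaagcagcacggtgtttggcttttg
In TYR the hexamer begins 104 and 12 bases before the start, and in the DCT window it begins farther away, 215 and 134 bases before. The match is a description of the letters, and TYRP1, with the hexamer 144 and 11 bases before its start, had a lower level than DCT.

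Among transcription factors of the lists, MITF was the most abundant. It lies on chromosome 3 (69739456 to 69968336), and had 357, 370.2 and 435 TPM in untreated and 321, 349 and 465 TPM in siCNTL libraries. Its highest value in each group was the batch 3 library. SOX10 (chromosome 22, 37970686 to 37987422), the neural crest factor that the series targets, had 22.3, 26.0 and 32.4 TPM in untreated and 30.005, 28.6 and 36.8 TPM in siCNTL libraries, again highest in batch 3. It lies within POLR2F on the opposite strand. Libraries made with SMART-Seq v4 and Nextera XT do not keep the strand, so reads of both genes cannot be told apart where the genes overlap. PAX3, the paired-box factor that acts with SOX10, was lower, at 16.7 TPM (13.8 to 20.9).

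The other leading factors were of several families. ETV5 at 241 TPM (185 to 259) and ETV4 at 103 TPM (81.1 to 126) are ETS factors known as targets of the MAP kinase pathway. HEY1, a repressor downstream of Notch, was at 194 TPM (122 to 233), MYC at 145 TPM (129.7 to 156), and LEF1, a nuclear partner of beta-catenin, at 126 TPM (88.0 to 146). NR1H2, the ubiquitous liver X receptor, was at 73.8 TPM (59.6 to 79.1), ID3, an inhibitor of basic helix-loop-helix factors, at 69.7 TPM (49.5 to 83.6), and TBX2, a T-box repressor, at 41.3 TPM (35.7 to 67.5). SNAI2, which melanocytes need for their migration, was at 42.1 TPM (31.9 to 56.1). It had 51.2, 47.4 and 56.1 TPM in untreated and 32.0, 36.8 and 31.9 TPM in siCNTL libraries. Of the zinc-finger factors that repress E-cadherin, ZEB1 was at 17.4 TPM (15.3 to 21.9) and ZEB2, the one typical of melanocytes, at 10.2 TPM (4.14 to 13.3). Over the list of 53 melanocyte and neural crest factors 36 were detected, with a median gene of 6.89 TPM, and 3 were listed at 0 (TWIST2, TFAP2B and ALX4).

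Factors of other lineages stood apart from these by level. Of 75 factors of neurons, muscle, blood, epithelia, gut, liver, heart, kidney, gonads and pluripotent cells, 12 were detected (16%) and 36 were listed at 0 (48%), against 53.8% and 21.2% of all protein-coding genes. Those listed at 0 included MYOD1 and MYOG of muscle, NKX2-1 and FOXA2 of endoderm, PAX8 of kidney and thyroid, NANOG of pluripotent cells, SPI1 of myeloid cells, TBX21 of T cells and TP63 of squamous epithelium. The highest detected one was OLIG1, a factor of oligodendrocytes, at 44.7 TPM (23.5 to 54.5). RUNX3 followed at 23.1 TPM (17.2 to 25.1), MEF2C at 12.5 TPM (10.6 to 15.0), both also known from the neural crest or its derivatives, and GATA2 of blood progenitors at 8.18 TPM (6.39 to 10.9). NKX2-5, known for the heart, was at 7.13 TPM (5.68 to 9.24), and ESRP1, a splicing factor of epithelia, at 6.40 TPM (2.30 to 9.31). OLIG1 and ESRP1 were lowest in siCNTL replicate 3.

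**Figure D3:**
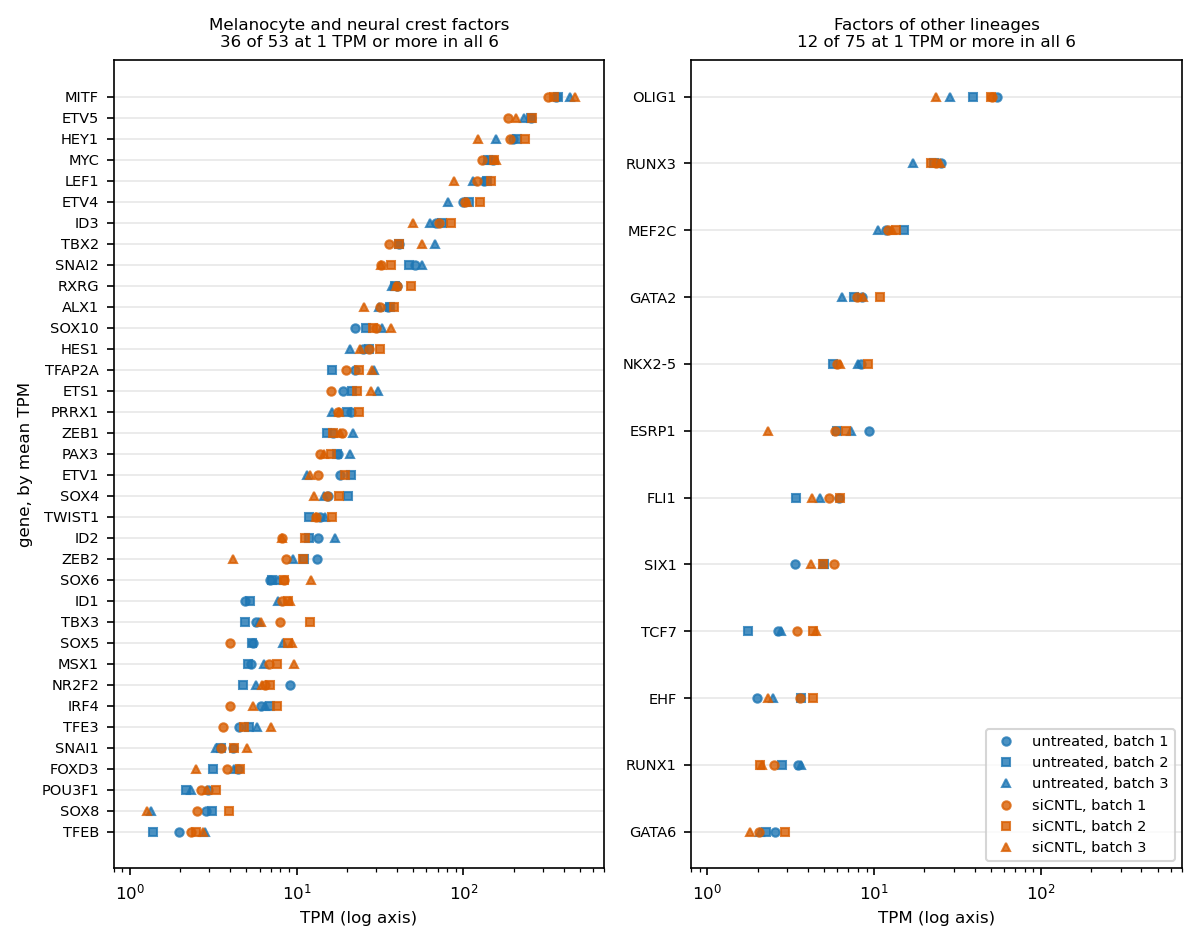
TPM (horizontal log axis) of every detected factor of the 2 lineage lists, 1 point per library, coloured by group and shaped by batch. On the left MITF leads at 321 to 465 TPM with SOX10 at 22.3 to 36.8 TPM, and on the right the highest factor of another lineage, OLIG1, reaches 54.5 TPM.

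Of 48 nuclear receptors 22 were detected (45.8%), 11 were listed at 0, and the median gene had 1.19 TPM. After NR1H2, 3 lay above the 20.6 TPM of the median detected protein-coding gene. NR2F6, an orphan receptor, was at 39.6 TPM (36.2 to 44.6) and ESRRA, which acts on mitochondrial genes, at 25.8 TPM. RXRG, a retinoid X receptor found in melanocytic and neural crest cells, was at 39.6 TPM (37.3 to 48.5), ahead of RXRB at 5.44 TPM (3.42 to 6.78) and RXRA at 2.46 TPM (2.06 to 2.98), whose ranges do not reach it. The receptors for oestrogen (ESR1) and progesterone (PGR) were among those listed at 0.

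Markers of other cell types served to check the label. Of 20 Schwann cell and glial markers, which share the neural crest origin, 11 were detected. S100B, a calcium-binding protein long used to stain melanoma, had 1363, 1178 and 1003 TPM in untreated and 1084, 970.1 and 623 TPM in siCNTL libraries, lowest in each group in batch 3. CNP, an enzyme of myelin, was at 322 TPM (268 to 341), MBP, myelin basic protein, at 188 TPM (156 to 211) and PMP22 at 75.2 TPM (69.1 to 93.4). NGFR, the low-affinity neurotrophin receptor of neural crest-like melanoma states, reached at most 0.840 TPM. SCN7A was listed at 0.

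Fewer markers were detected for cell types outside the neural crest. Of 14 fibroblast markers 3 were detected: LUM, a matrix proteoglycan, at 178 TPM (149 to 223), FBLN1 at 3.32 TPM (1.85 to 7.42) and DCN at 2.47 TPM (1.39 to 4.04). The other 11, among them the collagen genes COL1A1, COL1A2 and COL3A1, summed to at most 4.63 TPM in any library, and DPT and MFAP5 were listed at 0. Of 12 endothelial markers EGFL7 was the only one detected, at 86.0 TPM (77.6 to 97.0), and the other 11 summed to at most 1.48 TPM, with CDH5, CLDN5, ERG and ROBO4 listed at 0. Of 18 keratinocyte and epithelial markers 4 were detected, KRT18 at 116 TPM (68.9 to 159.9), PERP at 64.6 TPM (58.9 to 77.6), KRT10 at 34.96 TPM (31.5 to 39.1) and KRT8 at 19.6 TPM (15.0 to 24.3). KRT5, KRT15, KRT19, KRT1, IVL, DSG3, DSC3, TP63 and GRHL2 were listed at 0. No marker of T and NK cells (0 of 14), B and plasma cells (0 of 10) or erythroid cells (0 of 11) was detected, and their summed levels stayed at or below 6.75, 2.63 and 9.82 TPM. Of 16 myeloid markers CD68, a lysosomal protein, was at 36.7 TPM (29.9 to 49.4) and FCER1G at 2.65 TPM (1.52 to 4.92). The other 14 myeloid markers summed to at most 4.02 TPM, with SPI1, AIF1, CD163, MRC1, C1QA, C1QB and S100A9 listed at 0. The summed level of all 16 was 36.3 to 40.0 TPM in untreated cells and 41.9 to 56.5 TPM with siCNTL. That of the 14 fibroblast markers was 158 to 235 and 180.2 to 211 TPM, and that of the 18 epithelial ones 193 to 256 and 179 to 278 TPM. CD68 alone made up most of the myeloid sum, at 29.9 to 36.2 TPM in untreated and 37.2 to 49.4 TPM in siCNTL libraries. The 14 undetected myeloid markers summed to 2.28 to 3.91 TPM in untreated and 1.94 to 4.02 TPM in siCNTL libraries, so without CD68 and FCER1G the groups overlapped. One library stood apart for erythroid markers: their sum of 9.82 TPM was that of siCNTL replicate 1, while it was 0 to 0.558 TPM in the other 5. The sum of the T and NK cell markers was also highest in that library, at 6.75 TPM beside 5.40 TPM in siCNTL replicate 2. The sums of the myeloid and of the B and plasma cell markers were instead highest in siCNTL replicate 2, at 56.5 and 2.63 TPM.

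**Figure D4:**
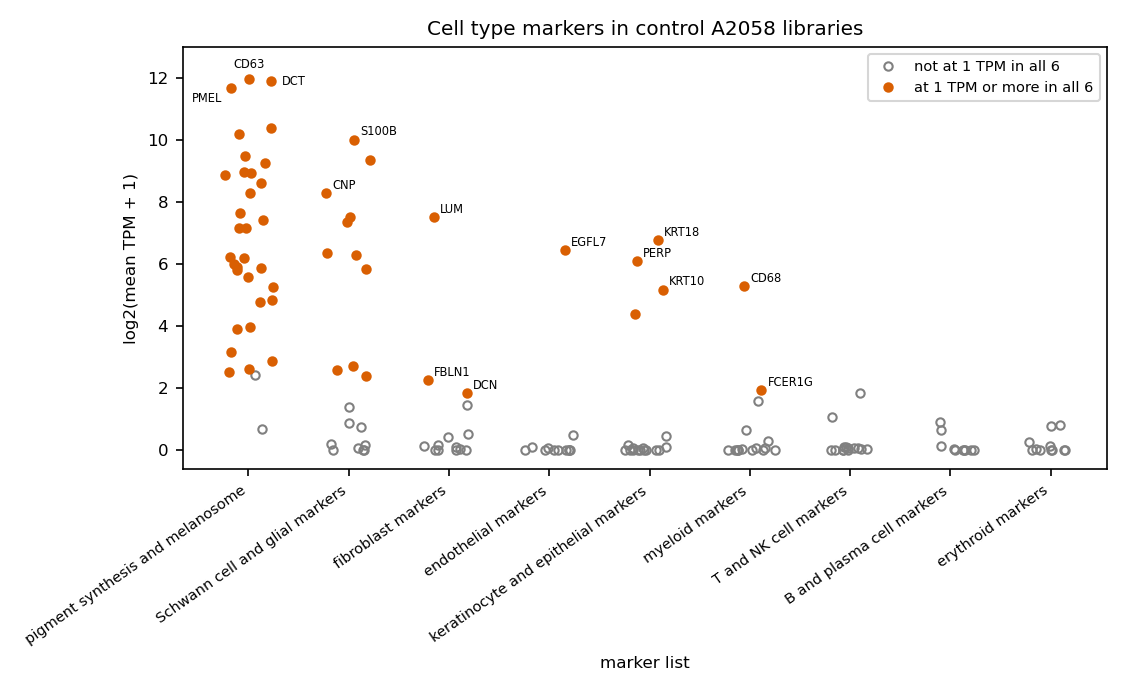
Mean level over the 6 libraries as log2(TPM + 1), 1 point per gene, for the pigment list and 8 lists of cell type markers, with filled points for genes at 1 TPM or more in all 6 libraries. Of the pigment list 32 of 34 points are filled, against 0 of 14 for T and NK cells, 0 of 10 for B and plasma cells and 0 of 11 for erythroid cells.

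Receptor tyrosine kinases were expressed at low levels. Of 58 members 20 were detected and 11 were listed at 0, with a median gene of 0.404 TPM, and none reached 100 TPM. ERBB3, the neuregulin receptor of neural crest derivatives, led with 59.8, 59.2 and 51.5 TPM in untreated and 57.3, 74.2 and 35.98 TPM in siCNTL libraries. TYRO3, of the TAM family, was at 43.2 TPM (37.5 to 50.5), while AXL of the same family was at 5.34 TPM (4.71 to 6.86) and MERTK at 1.34 TPM (0.470 to 1.41). RYK, a Wnt co-receptor, was at 30.3 TPM (25.1 to 33.9), ERBB2, the usual partner of ERBB3, at 18.2 TPM (14.2 to 20.5), and the collagen receptors DDR1 and DDR2 at 15.2 TPM (13.3 to 23.8) and 13.1 TPM (11.1 to 21.6). EPHA2, an ephrin receptor, was at 9.47 TPM (8.05 to 11.3), and MET, the receptor of hepatocyte growth factor, at 5.42 TPM (2.85 to 7.81). EGFR, the epidermal growth factor receptor, was listed at 0, as were ROR2, MST1R, NTRK3, FLT3, LTK and ROS1, INSRR, EPHA7, EPHA10 and EPHB6.

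Among 67 G protein-coupled receptors of melanocytes and the nervous system 20 were detected and 15 were listed at 0. EDNRB, the endothelin receptor that melanoblasts need for their migration, was far above the others. It had 315, 309 and 339 TPM in untreated and 246, 272 and 242 TPM in siCNTL libraries. FZD6, a Wnt receptor, was next at 58.2 TPM (39.7 to 68.2), then ADGRG1, an adhesion receptor, at 42.6 TPM (35.9 to 52.5), CCR10, a chemokine receptor, at 24.3 TPM (19.2 to 38.6), and F2R, the thrombin receptor, at 23.3 TPM (19.3 to 30.9). MC1R, the receptor of melanocyte-stimulating hormone, was at 11.4 TPM (10.3 to 14.0). Of the listed ones ACKR3, PTGER2, PTGER3, S1PR3 and both bradykinin receptors were at 0.

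Of 59 receptors for cytokines 33 were detected (55.9%), a share near that of all protein-coding genes, and 7 were listed at 0. Both chains of the receptors for interferons alpha/beta and gamma were present, IFNGR2 at 218 TPM (188 to 235), IFNAR1 at 60.8 TPM (48.1 to 71.7), IFNAR2 at 50.1 TPM (43.5 to 58.3) and IFNGR1 at 42.8 TPM (37.3 to 47.2). LTBR, the lymphotoxin receptor, was at 85.7 TPM (77.9 to 107) and TNFRSF10B, a death receptor for TRAIL, at 66.4 TPM (47.9 to 82.3). The TGF-beta receptors TGFBR1 and TGFBR2 were at 23.9 TPM (17.9 to 27.4) and 10.7 TPM (6.32 to 13.4). Receptor chains of lymphocytes and granulocytes, among them IL2RA, IL5RA and CSF2RB, were listed at 0.

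Of 26 integrin genes 12 were detected. Integrins are heterodimers that anchor cells to the matrix or to other cells. ITGB1, the partner of most alpha chains, led at 193 TPM (159.9 to 214), followed by ITGB5 at 155 TPM (119.8 to 197). ITGB3, which forms the vitronectin receptor of invasive melanoma with ITGAV, was at 113 TPM (88.9 to 119). The alpha chains were mostly lower, ITGA6 at 32.8 TPM (27.4 to 43.1), ITGA5 at 32.2 TPM (24.02 to 37.6), ITGA4 at 18.2 TPM (15.9 to 23.6), ITGAV at 17.5 TPM (13.1 to 19.6) and ITGA3 at 5.31 TPM (4.26 to 6.39). ITGAE, known from mucosal T cells, was the highest alpha chain at 119.5 TPM (99.9 to 136), above ITGB3 by median. Its partner ITGB7 reached at most 3.00 TPM. Other beta chains were also low, with ITGB8 at 4.49 TPM (2.42 to 5.59) and ITGB4 at most 1.79 TPM. ITGA8 and ITGAD were listed at 0.

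Cell junction genes were dominated by catenins. CTNNB1, which serves both cadherins and Wnt signalling, was at 1428 TPM (1322 to 1576), and CTNNA1 at 140.4 TPM (113 to 164). CDH2, N-cadherin, was at 12.4 TPM (8.12 to 13.2), and CDH19, a cadherin of neural crest and Schwann cells, at 4.07 TPM (2.33 to 6.37). GJB1, the connexin of Schwann cells, was at 92.6 TPM (51.8 to 99.1), while GJA1, the common connexin, was listed at 0. So were the desmosomal genes DSG1, DSG3, DSC1, DSC2, DSC3, PKP1 and PKP2 and the claudins CLDN3 and CLDN5. Other members of these families were detected, DSP at 11.4 TPM (9.74 to 14.4), DSG2 at 3.00 TPM (2.22 to 3.33), JUP at 3.00 TPM (2.28 to 4.10) and CLDN1 at 7.85 TPM (3.16 to 8.59). In all, 16 of 43 members were detected and 13 were listed at 0.

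Other adhesion molecules were abundant, with 34 of 47 detected and a median gene of 22.1 TPM. Beside SPARC and CD63, LGALS3 and LGALS1, the galectins, were at 2743 TPM (1735 to 2974) and 2398 TPM (2173 to 2566), LGALS3BP at 1517 TPM (1397 to 1596), and BSG, basigin, which escorts lactate transporters to the membrane, at 1005 TPM (937 to 1079). CD44, a hyaluronan receptor, was at 374 TPM (317 to 563). MCAM, a melanoma adhesion molecule, was at 192 TPM (179 to 228). FN1, fibronectin, was at 165 TPM (121 to 223), and ICAM1, a ligand of leukocyte integrins, at 118 TPM (106 to 121). SPP1, osteopontin, spread widely, with 683, 585 and 271 TPM in untreated and 490.3, 469 and 179.8 TPM in siCNTL libraries, lowest in batch 3 of each group. CADM2, CADM3, SELP and VTN were listed at 0.

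Genes of antigen presentation were broadly detected, 26 of 30 for MHC class I with a median gene of 63.6 TPM. B2M, the invariant light chain, was at 3619 TPM (3167 to 3812). HLA-C was at 380.2 TPM (362 to 388). HLA-B had 120.3, 117 and 133 TPM in untreated and 128, 125 and 263 TPM in siCNTL libraries, so that siCNTL replicate 3 stood alone. The classical HLA genes resemble each other closely, so their separate levels are uncertain. Of the peptide transporter, TAP1 was at 54.9 TPM (49.1 to 65.3) and TAP2 at 10.1 TPM (6.96 to 12.2), and of the immunoproteasome PSMB8 was at 152 TPM (139 to 162) and PSMB9 at 67.4 TPM (56.0 to 84.1). NLRC5, the class I transactivator, was at 2.92 TPM (1.52 to 3.09), and HLA-G reached at most 1.25 TPM.

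MHC class II genes, which most non-immune cells lack without interferon gamma, were detected in 11 of 14 cases. CD74, the invariant chain, had 215, 229.5 and 247 TPM in untreated and 238, 279.7 and 286 TPM in siCNTL libraries. HLA-DMA was at 122 TPM (99.7 to 138), HLA-DPA1 at 116 TPM (100.1 to 129), HLA-DRB1 at 109 TPM (96.6 to 151) and HLA-DPB1 at 107 TPM (88.2 to 125). HLA-DRA, the alpha chain that pairs with HLA-DRB1, was lower than its partner in every library, at 14.9 TPM (11.1 to 18.1). CIITA, the class II transactivator, was at 2.96 TPM (1.41 to 3.63). IFNG itself was listed at 0, as was the B cell marker BLK.

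The remaining immune genes split by function. Of 30 checkpoint ligands and complement regulators 13 were detected. The protectors against complement CD59, CD46 and CD55 were at 393 TPM (331 to 427), 71.9 TPM (65.2 to 74.5) and 48.3 TPM (34.8 to 56.1), and the ligands TNFRSF14 and CD276 at 169.8 TPM (119 to 225) and 41.1 TPM (40.7 to 49.5). CD274, which encodes PD-L1, stayed low with 1.07, 1.41 and 0.273 TPM in untreated and 3.27, 1.27 and 0.824 TPM in siCNTL libraries. CD80, FASLG, CD40LG, HHLA2 and IDO2 were listed at 0. Of 62 cytokines and chemokines 17 were detected. MIF and GDF15, a stress-induced TGF-beta family member at 1878 TPM (834 to 2365), were far above the next, the heparin-binding factor MDK at 310.2 TPM (274 to 383). CCL28 at 51.7 TPM (34.0 to 62.7), CXCL1 at 21.8 TPM (7.72 to 28.5), CXCL16 at 18.9 TPM (12.8 to 22.2) and CXCL8 at 18.9 TPM (8.70 to 25.5) led the chemokines, while CXCL12, CCL7, CCL8 and the interferons IFNG, IFNA1 and IFNL1 were listed at 0.

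Of 41 nucleic acid sensors and interferon response genes 24 were detected. IFI16, a DNA sensor, was at 280.4 TPM (266 to 322), STING1 at 17.1 TPM (14.1 to 20.9), CGAS at 11.1 TPM (5.47 to 13.1), and IFIH1, an RNA sensor, at 6.82 TPM (5.94 to 11.3). The interferon-stimulated IFI6 and ISG15 were at 70.8 TPM (62.4 to 86.3) and 50.1 TPM (42.2 to 68.2), while MX1 reached at most 2.33 TPM. IRF1, a factor of interferon responses named in the series title, was at 5.77 to 12.7 TPM in 5 libraries and at 39.3 TPM in siCNTL replicate 2. TLR7, TLR8 and TLR10 were listed at 0.

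Cancer-testis antigens, normally limited to germ cells and often derepressed in tumours, were present as a subset: 23 of 61 were detected and 18 were listed at 0. PRAME was the highest at 289 TPM (229.5 to 337). The list also holds TRPM1, given above with the pigment genes, which ranked after MAGEA3. The other leading members lay in 1 cluster on the X chromosome. MAGEA3 was at 191 TPM (162 to 211), CSAG1 at 142 TPM (127 to 157), MAGEA12 at 121 TPM (99.2 to 156) and MAGEA6 at 73.0 TPM (64.8 to 83.9). All 8 listed genes between 152698767 and 152769716 on X (MAGEA3, CSAG2, MAGEA2B, CSAG1, MAGEA12, MAGEA2, CSAG3 and MAGEA6, GRCh38) were detected. Outside that interval on X the listed genes differed: MAGEA1 at 33.1 TPM (15.4 to 40.0), MAGEA10 at 8.63 TPM (3.20 to 12.4) and MAGEA11 at 1.94 TPM (1.24 to 2.64) were detected, MAGEA4 at 7.80 TPM (0.803 to 9.44) was not, and MAGEA8 and MAGEA9 were listed at 0. MAGEA3 and MAGEA6, MAGEA2 and MAGEA2B, and CSAG2 and CSAG3 are near-identical copies, so the split within each pair is uncertain. The genes of the NY-ESO-1 family, CTAG1A, CTAG1B and CTAG2, were listed at 0, as were SSX3, SSX4, SPANXB1, CT83 and the MAGEB members MAGEB1 and MAGEB4.

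Of 48 genes of melanoma signalling and tumour suppression 45 were detected, with a median gene of 16.6 TPM and none listed at 0. RAC1, a small GTPase, was at 421 TPM (397 to 448), CDKN2A, which encodes a pair of cell cycle inhibitors, at 328 TPM (216 to 356), and CDK4, the kinase that 1 of them inhibits, at 306 TPM (276 to 336). IDH1 was at 248 TPM (233 to 268), BCL2A1, an antiapoptotic target of MITF, at 219 TPM (160.1 to 255), and CCND1, cyclin D1, at 149 TPM (122 to 182). The kinases of the MAP kinase cascade differed in level. MAP2K2 was at 142 TPM (119 to 184) and MAP2K1 at 24.4 TPM (22.8 to 31.3), with no overlap between them. MAPK3 was at 4.09 TPM (3.56 to 4.76) and BRAF at 3.68 TPM (2.18 to 4.99). NF1, a negative regulator of RAS, was at 4.21 TPM (3.09 to 7.22). TPM of a gene do not show whether its protein is made or altered.

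Of 17755 long noncoding RNA genes 953 were detected (5.37%). MALAT1, a nuclear RNA of speckles, led with 1011, 1029.9 and 1385 TPM in untreated and 2041, 1779 and 2078 TPM in siCNTL libraries. Hosts of small nucleolar RNAs followed, SNHG29 at 905 TPM (759 to 981), SNHG16 at 326 TPM (278 to 378), GAS5 at 309.7 TPM (227 to 425), SNHG5 at 222 TPM (179 to 288) and SNHG6 at 218 TPM (191 to 269), with PHLDA1-AS1 at 264 TPM (196 to 370.5). The other 3 of the 10 highest lie opposite a far more abundant coding gene: ENSG00000258017 at 489.9 TPM (354 to 715) opposite TUBA1B, ENSG00000269968 at 376 TPM (265 to 861) opposite GAPDH and ENSG00000265401 at 239 TPM (159 to 381) opposite UBB. SMART-Seq v4 and Nextera XT libraries, the type made here, do not keep the strand of a read. Reads of such pairs therefore cannot be told apart where the genes overlap, and these 3 levels are uncertain. Of the 30 highest long noncoding genes, 6 overlap a higher gene on the opposite strand.

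Processed pseudogenes held 1.09% to 2.32% of all TPM, and the highest were copies of abundant genes, among them RPL21P16 at 1354 TPM (702 to 1591), H3P6 at 1234 TPM (962 to 1395) and RPL39P3 at 819 TPM (305 to 1314). Their reads may belong to the parent genes. Pseudogenes of ribosomal proteins held 0.335% to 0.879%, beside the 9.17% to 10.3% of the genes themselves. Mitochondrial transcripts were led by the large rRNA MT-RNR2 at 4866 TPM (3334 to 5515) and the subunits of cytochrome oxidase, MT-CO2 at 2753 TPM (1865 to 3171), MT-CO1 at 2517 TPM (1457 to 2938) and MT-CO3 at 2486 TPM (1939 to 2957), and were lowest for MT-ND1 among the protein-coding ones at 109 TPM (83.6 to 158).

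Most abundant genes were steady across the 6 libraries: of 3162 genes at a mean of 50 TPM or more the median coefficient of variation was 10.4%, and 36 genes were at 50% or more. Of the 10 most variable, 3 were processed pseudogenes (FTH1P7, FTH1P2 and PFN1P1), 2 nuclear rRNA genes (RNA5-8SN2 and a 5_8S_rRNA copy), 1 the microRNA gene MIR1307, 1 the unprocessed pseudogene ENSG00000266356 and 3 protein-coding. NDRG1, a gene induced by hypoxia and stress, had 34.7, 179 and 19.4 TPM in untreated and 24.5, 34.4 and 18.5 TPM in siCNTL libraries, so that untreated replicate 2 alone was high. UTS2, which encodes the peptide urotensin II, had 37.3, 36.1 and 7.62 TPM in untreated and 115, 115 and 9.32 TPM in siCNTL libraries. DDIT3, the stress factor also called CHOP, had 329, 295 and 81.5 TPM in untreated and 571, 668 and 63.7 TPM in siCNTL libraries. For UTS2 and DDIT3 both batch 3 libraries were the lowest, and in batches 1 and 2 the siCNTL library was above the untreated one.

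Over the 3030 protein-coding genes at a mean of 50 TPM or more, both batch 3 libraries lay below the other 4 in 608 (20.1%) and above them in 435 (14.4%). The genes named next were chosen after their values were seen, for high variation, so their counts describe that choice. Among the 60 most variable genes 21 were protein-coding, and in 13 of these both batch 3 libraries lay below the other 4, namely NDRG1, UTS2, DDIT3, HERPUD1, FABP7, DUSP6, TRIB3, MAT2A, SPP1, AMACR, IFITM1, HSPA5 and SDF2L1. HSPA5, a chaperone of the endoplasmic reticulum, had 1146, 1003 and 677 TPM in untreated and 1257, 1686 and 504 TPM in siCNTL libraries. HERPUD1, of protein degradation at that organelle, had 487, 364 and 158 TPM in untreated and 618, 780.3 and 140.3 TPM in siCNTL libraries. In 2 genes both batch 3 libraries were above the other 4. These were OSGIN1, an oxidative stress gene, with 278 TPM in untreated and 211 TPM in siCNTL libraries in batch 3 against 79.1 to 101 TPM elsewhere, and CITED1, a transcriptional coactivator of melanocytes, with 80.5 and 108 TPM against 26.0 to 57.0 TPM. Batch 3 also had the highest nuclear rRNA, and the part of that in these values was not tested.

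**Figure D5:**
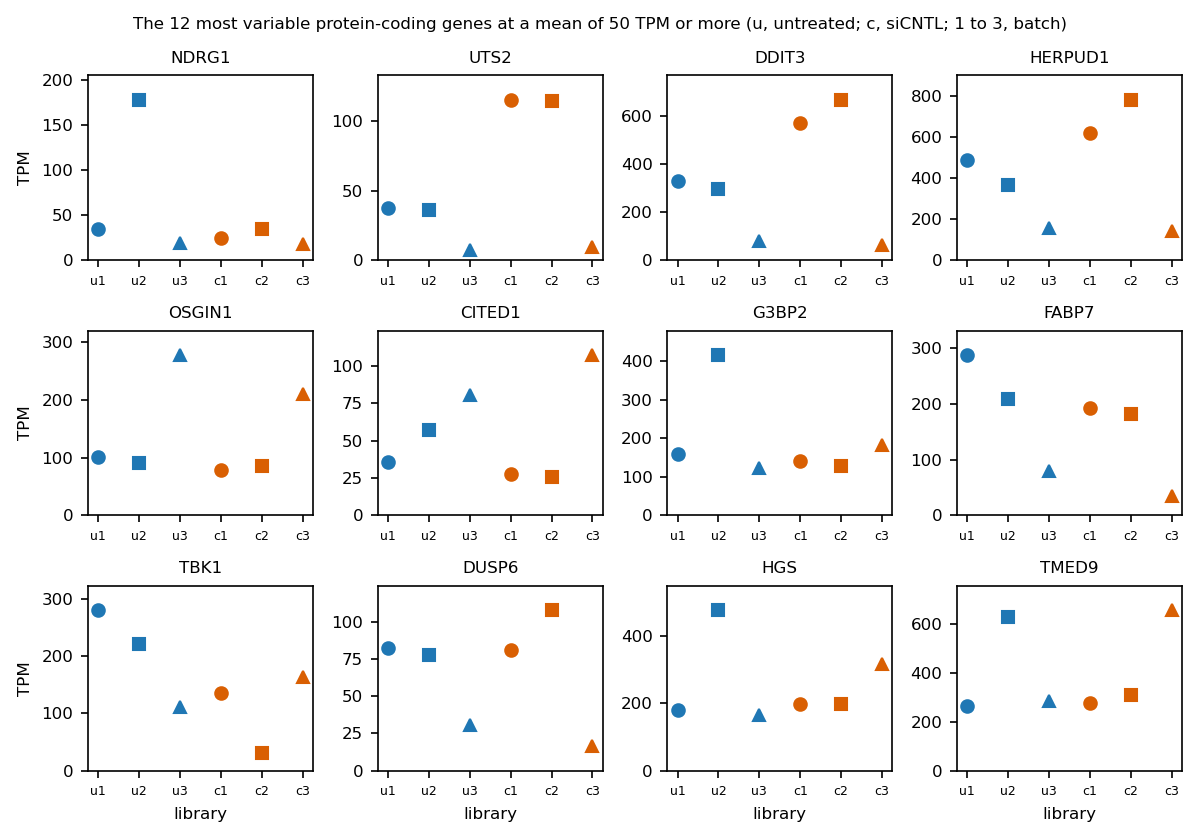
TPM per library (vertical axes from 0) of the 12 most variable protein-coding genes at a mean of 50 TPM or more, with untreated (u) in blue, siCNTL (c) in orange and batches 1 to 3 by number and shape. DDIT3 and HERPUD1 are lowest in both batch 3 libraries, OSGIN1 and CITED1 are highest there, and NDRG1 is high only in untreated replicate 2, at 179 TPM.

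The 2 control groups, described together above, were also compared with each other. In limma (log2(TPM + 1), 15738 genes that reached 1 TPM in 3 or more libraries, Benjamini-Hochberg adjustment) 0 genes passed an adjusted p of 0.05 between siCNTL and untreated cells, which is 0% of those tested, and 581 had an unadjusted p under 0.05. With the batch as a block 0 passed and 947 had an unadjusted p under 0.05. Over the 100 most abundant genes the median log2 fold change was -0.04, and over the 662 genes of the lists that were tested it was -0.02, against 0.01 over all genes tested. CALU, a calcium-binding protein of the secretory pathway chosen here for its p, had the lowest one. Its untreated libraries were at 606, 569.8 and 669 TPM and its siCNTL libraries at 393, 461 and 428 TPM, a log2 fold change of -0.52 ± 0.0903 (SE), all 3 siCNTL libraries below all 3 untreated ones. Its limma adjusted p was 0.729, 0.472 with the batch as a block and 0.934 to 1 without 1 control library. EDNRB, SNAI2 and MALAT1, whose groups did not overlap either, did not pass. The share of all genes whose groups do not overlap was not counted, so these cases cannot be set against it. With 3 libraries a group, a p that misses the threshold does not show that a gene's levels were equal.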

How the data were processed

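RNA libraries were made with SMART-Seq v4 and Nextera XT and sequenced on an Illumina NovaSeq, per the labels' protocols. Of software, bcl2fastq and DRAGEN are named in the submitters' processing notes, without annotation or strand setting. The deposited values are the authors' TPM for 61587 genes in 1 table, and each library's TPM sum to 1000000, so depth is unknown. GENCODE 29 (GRCh38) held 94.8% of the identifiers, nearly all at an overlapping place, so coordinates are given as GRCh38. No pair of control libraries was a duplicate: at most 0.145% of the genes above 0 in both had exactly equal values.

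Members were taken from the labels. The members and gene lists were chosen with earlier results of these data known. Named genes follow a rule of rank within all genes or within each list, with further members added after their values were seen. The only test was limma 3.58.1 in R 4.3.3 on log2(TPM + 1), with all 12 libraries in 4 groups (8 residual degrees of freedom, trend and robust options), which was tested on simulated data. Its p-values reflect only variation among these libraries, which may be technical. Replicate numbers mark batches in the labels and therefore pair libraries. For the 3 same-batch control pairs, the median correlation of deviations from the group mean was 0.179. Alternatives were thresholds, filters, pseudocounts, scalings, library subsets and the batch as a block. Promoter sequences are RefSeq's (GRCh38.p14).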

Additional observations from a re-analysis of the deposited data

How the results depend on the processing

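The number of detected genes, 12304, stayed within 1.5 times under every alternative run: 13470 at 0.5 TPM, 8807 at 5 TPM, 14177 when 3 of 6 libraries sufficed, and 12361 to 12508 without 1 library. Without 1 library the top 100 genes held 26.2% to 26.4% of the TPM, mitochondrially encoded genes 1.63% to 1.80%, ribosomal proteins 9.73% to 9.96% and protein-coding genes 94.0% to 94.6%. Ranking by median kept 96 of the 100 leading genes, the untreated libraries alone 97 and the siCNTL libraries alone 94. Counting processed pseudogenes of ribosomal proteins with the genes raised their mean share from 9.83% to 10.4%, by construction. Between siCNTL and untreated cells limma called 0 genes with the replicate block, at pseudocounts of 0.1 and 5, at a filter of 5 TPM, under median-of-ratios scaling, with the 6 control libraries alone and without any 1 library. With no filter on low values it called 1, the long noncoding ENSG00000272942, at 0.235, 0.272 and 0.188 TPM in untreated cells and listed at 0 with siCNTL. The cause was not tested. Depth is unknown, so levels near 1 TPM, listed zeros and near-identical genes are the least certain values.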
